A study of Mus musculus with 6 samples.

Results

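The genes described here are 7 genes of Schwann cells and of the myelin they make, *Mbp*, *Pmp22*, *Prx*, *Mag*, *Sox10*, *S100b* and *Egr2*, chosen by symbol as a gauge of how much nerve each muscle library held. All 7 were found among the 24532 genes of the expression table, and all 7 had enough reads to be tested. RNA came from the gastrocnemius (GAS) muscle of C57BL/6 male mice of about 20 weeks of age. The 3 WT animals carried *Sirt6* alleles flanked by loxP sites (flox/flox) and no Cre, and the 3 *Sirt6* KO animals carried the same alleles together with *Myl1-Cre*. This Cre is driven by the myosin light chain 1 promoter, active mainly in fast muscle fibers, so the deletion was aimed at fibers and not at the cells of the nerve. Nothing in the labels says that animals were pooled. The edgeR p-values below set the difference between the groups against the spread within them, over these 6 samples. That spread is estimated for each gene partly from the other genes.

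Schwann cells are the glia of peripheral nerve. Myelinating Schwann cells wrap single axons in compacted membrane, non-myelinating ones hold bundles of thin axons, and terminal Schwann cells cap the neuromuscular junction. In muscle they sit in the intramuscular nerve branches, so that their transcripts make up a small part of muscle RNA. *Sox10* and *Egr2* (also called Krox20) encode the transcription factors that switch on the myelin program, *Mbp* and *Pmp22* encode proteins of compact myelin, *Prx* (periaxin) a scaffold of the outer Schwann cell membrane, *Mag* an adhesion protein facing the axon, and *S100b* a calcium-binding protein used as a Schwann cell marker. *Pmp22* and *Egr2* are also known from other cells: *Pmp22* from fibroblasts and other cell types, and *Egr2* as a gene induced quickly by stimulation.

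The table lists 8 RefSeq transcripts under *Mbp*, 7 each under *Pmp22* and *Mag*, 2 each under *Prx* and *Egr2*, and 1 each under *Sox10* and *S100b*, and it gives 1 value per gene. It therefore does not separate the classic *Mbp* transcripts from the longer Golli transcripts of the same gene, which are made outside myelin too. Nor does it separate the alternative start sites of *Pmp22*, of which one is known for its use in myelinating Schwann cells. RefSeq promoter windows of GRCm38.p6, reaching from 250 bases before to 50 bases after a transcript start, were at hand for 5 of the 7 genes (14 windows). The sequences below are shown because they belong to *Pmp22*, whose start sites the counts merge, and because 2 of them hold the letters that Sox10 or Egr2 is known to read. They are written 5′ to 3′ on the strand of the gene, and capitals mark a match.
Pmp22, most upstream window (chr11:63128732-63129031, plus strand): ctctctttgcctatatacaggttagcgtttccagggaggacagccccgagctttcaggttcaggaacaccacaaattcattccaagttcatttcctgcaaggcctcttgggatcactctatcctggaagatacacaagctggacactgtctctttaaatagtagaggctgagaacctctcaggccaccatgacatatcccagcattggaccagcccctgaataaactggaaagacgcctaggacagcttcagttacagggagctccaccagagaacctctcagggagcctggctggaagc
Pmp22, most downstream window (chr11:63132553-63132852, plus strand): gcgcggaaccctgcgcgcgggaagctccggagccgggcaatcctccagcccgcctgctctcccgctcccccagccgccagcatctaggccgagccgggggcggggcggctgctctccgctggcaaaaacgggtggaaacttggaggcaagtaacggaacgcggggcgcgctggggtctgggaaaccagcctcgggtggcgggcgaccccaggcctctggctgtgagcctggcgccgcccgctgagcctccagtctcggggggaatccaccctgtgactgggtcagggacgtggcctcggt
Mag (chr7:30914814-30915113, minus strand): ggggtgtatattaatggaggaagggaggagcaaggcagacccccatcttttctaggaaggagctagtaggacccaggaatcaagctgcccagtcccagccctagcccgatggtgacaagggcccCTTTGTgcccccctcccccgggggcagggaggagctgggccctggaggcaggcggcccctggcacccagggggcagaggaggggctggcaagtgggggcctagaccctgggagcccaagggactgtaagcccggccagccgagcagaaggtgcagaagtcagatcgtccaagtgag
Egr2 (chr10:67535249-67535548, plus strand): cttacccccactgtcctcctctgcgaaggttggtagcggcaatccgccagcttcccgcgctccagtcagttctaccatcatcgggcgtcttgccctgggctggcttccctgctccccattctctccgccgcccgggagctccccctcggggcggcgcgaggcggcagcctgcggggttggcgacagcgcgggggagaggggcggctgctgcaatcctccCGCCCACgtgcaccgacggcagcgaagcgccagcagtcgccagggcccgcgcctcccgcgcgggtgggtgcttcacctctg

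The *Pmp22* windows differed in base composition, with a GC content of 50.7% in the most upstream and 72.3% in the most downstream one. The windows were searched on both strands for 5 motifs: the SOX core written as ACAAAG or ACAATG, the EGR core GTGGGCG, the cAMP response element TGACGTCA and the TATA box TATAAA. The *Mag* window held ACAAAG on the opposite strand, beginning 126 bases before the start, and an overlapping window of a second *Mag* transcript held the same match. ACAAAG was present in 18.7% of all 32851 promoter windows of this length. The *Egr2* window held GTGGGCG on the opposite strand, beginning 31 bases before the start, and 7.97% of all windows held that core. The other 11 windows of these genes held none of the 5. A match is a run of letters and not a measured binding site.

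The libraries held between 44845763 and 63016899 counts on genes, and 1 count was worth between 0.0165 and 0.0212 CPM (counts scaled to a common library size) after normalization for library composition. Skeletal muscle, though not which muscle, was borne out by 6 fast fiber genes. Their deposited TPM (a level scaled to transcript length and library size) summed to between 158681 and 218047. Of 5 genes of oligodendrocytes, the glia that make myelin in the brain and spinal cord, 3 had no read in any library, and the 5 together reached at most 0.0754 TPM. *Sirt6* RNA itself went against the labels, at 2.93 to 3.90 TPM in WT and 7.75 to 9.62 TPM in the libraries labelled *Sirt6* KO, so the groups are called by their labels. A single value per gene does not tell an intact transcript from one that lacks the floxed part. The paper reports loss of Sirt6 protein in skeletal muscle of its KO mice by Western blot, which is another measure. The libraries also differed in 6 genes of slow muscle fibers, which summed to 4335, 3382 and 2103 TPM in WT libraries 1 and 2 and *Sirt6* KO library 2, and to 98.9, 300.0 and 439 TPM in WT library 3 and *Sirt6* KO libraries 1 and 3.

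None of the 7 genes differed between WT and *Sirt6* KO at an adjusted p under 0.05 by the quasi-likelihood test of edgeR, where 16.2% of the 13801 genes tested did (8.39% lower and 7.85% higher in *Sirt6* KO). The 3 WT and 3 *Sirt6* KO values overlapped in all 7 genes, while the groups lay apart in 40.0% of all genes tested (19.6% lower and 20.3% higher in *Sirt6* KO). At an unadjusted p under 0.05, 2 of the 7 passed (28.6%, against 35.3% of all genes), *Pmp22* with a lower and *Sox10* with a higher mean in *Sirt6* KO. *Sox10* alone also exceeded a 2-fold difference (1 of 7 or 14.3%, against 7.83% of all genes). By DESeq2's Wald test none of the 7 passed an adjusted p of 0.05 either, but *Pmp22* missed it narrowly (adjusted p = 0.0501). DESeq2 gave no adjusted p for *Mag*. The log2 fold change was below 0 in 5 of the 7 genes, with a median of -0.21, beside a median of -0.021 over all genes tested.

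**Figure D1:**
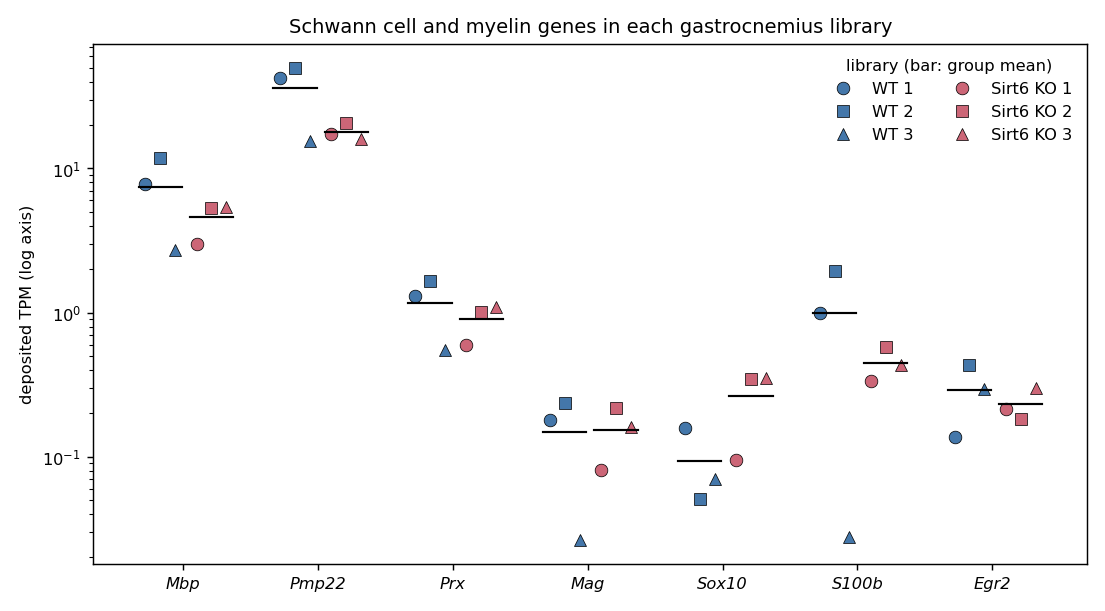
Deposited TPM (log axis) of the 7 genes in each library, with WT in blue and *Sirt6* KO in red, 1 symbol for each replicate number and a bar at the group mean. The groups overlap for every gene, and WT library 3 (blue triangle) lies below the other WT libraries for *Mbp*, *Pmp22*, *Prx*, *Mag* and *S100b*.

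*Mbp* (myelin basic protein, NCBI gene 17196, chromosome 18), which holds the cytoplasmic faces of the myelin membrane together, was at 7.81, 11.8 and 2.71 TPM in WT libraries 1, 2 and 3. In *Sirt6* KO libraries 1, 2 and 3 it was at 3.01, 5.34 and 5.44 TPM. The highest and the lowest of the 6 libraries were thus both WT, and they differed 4.36-fold. The group means were 7.44 ± 4.56 and 4.60 ± 1.38 TPM (SD, n = 3 each). *Sirt6* KO over WT gave a log2 fold change in the counts of -0.58, with a standard error of 0.46, a 95% interval from -1.66 to 0.50 and an adjusted p of 0.397 (edgeR, adjusted by Benjamini-Hochberg over all genes).

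*Pmp22* (peripheral myelin protein 22, gene 18858; GRCm38 chromosome 11, 63128982 to 63159547), a membrane protein of compact myelin, was the most abundant of the 7 on the TPM scale. It stood at 42.4, 50.1 and 15.4 TPM in the WT libraries and at 17.3, 20.7 and 15.9 TPM in the *Sirt6* KO libraries. WT libraries 1 and 2 were above all others, and WT library 3 was the lowest of the 6 in TPM. The group means were 36.0 ± 18.2 and 17.9 ± 2.49 TPM (SD, n = 3 each), with a log2 fold change of -0.84 in the counts (SE 0.34, 95% interval -1.63 to -0.05, unadjusted p = 0.0401 and adjusted p = 0.124, edgeR). Without WT library 3 the log2 fold change was -1.16 and the adjusted p 0.0064, in a fit in which 32.5% of all genes passed. This was the one fit, among the 16 alternatives that gave a value for *Pmp22*, in which it passed, and the adjusted p lay between 0.0064 and 0.339 over them.

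*Prx* (gene 19153; chromosome 7, 27499305 to 27520041), mutated with *PMP22* and *EGR2* in hereditary neuropathies of Charcot-Marie-Tooth type in people, was at 1.31, 1.65 and 0.554 TPM in WT. It was at 0.591, 1.01 and 1.10 TPM in *Sirt6* KO. As for *Mbp*, WT library 2 was highest, and WT library 3 and *Sirt6* KO library 1 were lowest. *Prx* had a log2 fold change of -0.21 (SE 0.39, 95% interval -1.12 to 0.70, adjusted p = 0.73, edgeR).

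*Mag* (myelin-associated glycoprotein, gene 17136; chromosome 7, 30899175 to 30914922) lines the innermost myelin layer against the axon and was near the limit of detection. It had 10, 13 and 2 reads in the WT libraries, or 0.180, 0.236 and 0.0263 TPM. In the *Sirt6* KO libraries it had 6, 17 and 12 reads, or 0.0814, 0.216 and 0.161 TPM. The same 2 libraries, WT 3 and *Sirt6* KO 1, were the lowest. Its log2 fold change of 0.26 (SE 0.75, adjusted p = 0.833, edgeR) had a 95% interval from -1.49 to 2.00, so that differences of more than 2-fold in either direction were within it.

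*S100b* (gene 20203; chromosome 10, 76253836 to 76261319) varied most. It had 35, 68 and 2 reads in WT (0.990, 1.95 and 0.0275 TPM) and 16, 30 and 21 reads in *Sirt6* KO (0.334, 0.576 and 0.433 TPM). All 3 *Sirt6* KO values lay between those of WT libraries 1 and 3. The exact 95% Poisson interval, which covers counting error only, was 1.12 to 1.83 CPM in WT library 2 and 0.00423 to 0.126 CPM in WT library 3, so these libraries of one group differed beyond counting error. *S100b* had a log2 fold change of -0.90 (SE 0.93, 95% interval -3.08 to 1.27, adjusted p = 0.521, edgeR).

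*Sox10* (gene 20665; chromosome 15, 79154913 to 79164490), the factor that sets and keeps Schwann cell identity, ran otherwise than the myelin genes. It had 9, 3 and 6 reads in the WT libraries, at 0.159, 0.0505 and 0.0700 TPM. It had 8, 29 and 27 reads in the *Sirt6* KO libraries, at 0.0951, 0.346 and 0.349 TPM. *Sirt6* KO libraries 2 and 3 were above every WT library, and *Sirt6* KO library 1 lay within the WT range. WT library 2, the highest for *Mbp*, *Pmp22*, *Prx* and *S100b*, was the lowest for *Sox10*, and *Mbp* over *Sox10* in TPM accordingly ran from 15.4 in *Sirt6* KO library 2 to 234 in WT library 2. The exact 95% Poisson interval of *Sox10* was 0.0131 to 0.186 CPM in WT library 2, and 0.320 to 0.687 CPM in *Sirt6* KO library 2. In WT library 1 it was 0.0825 to 0.343 CPM, which overlaps that of *Sirt6* KO library 2. In *Sirt6* KO library 1 it was 0.059 to 0.269 CPM, which overlaps those of all WT libraries. These intervals cover counting error in single libraries and do not compare the groups. *Sox10* had a log2 fold change of 1.64 (SE 0.66, 95% interval 0.09 to 3.19, unadjusted p = 0.0403 and adjusted p = 0.125, edgeR), from 18 reads in WT and 64 in *Sirt6* KO together. The adjusted p lay between 0.11 and 0.336 over 15 alternatives, so the difference did not pass in any of them.

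*Egr2* (gene 13654; chromosome 10, 67534469 to 67542188), the partner of Sox10 at myelin genes, had 9, 27 and 26 reads in WT and 18, 17 and 25 in *Sirt6* KO. These were 0.137, 0.435 and 0.295 TPM against 0.214, 0.183 and 0.302 TPM. It was lowest in WT library 1, where *Mbp* was second highest, and it was not low in WT library 3. *Egr2* had a log2 fold change of -0.21 (SE 0.51, 95% interval -1.40 to 0.98, adjusted p = 0.794, edgeR). *Egr2* is also an immediate-early gene, one of a class that is induced within minutes by stimulation. Of 8 others of that class 2 fell, beside 8.39% of all genes tested that were lower. These 2 were *Fos* and *Nr4a1*, with log2 fold changes of -3.41 (adjusted p = 0.0236) and -2.50 (adjusted p = 0.0128, edgeR). With a library left out their adjusted p reached 0.1 without *Sirt6* KO library 3 for *Fos* and 0.0699 without the same library for *Nr4a1*, and *Fos* passed only without WT library 3 (0.00578).

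Two-sided exact permutation tests on the level of each gene gave p-values from 0.2 (*Sox10*) to 1 (*S100b* and *Egr2*), where 3 animals against 3 cannot go below 0.1. In bulk tissue, fewer cells of a type and less RNA per cell cannot be told apart, so each of these levels is one of the muscle piece as a whole.

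**Figure D2:**
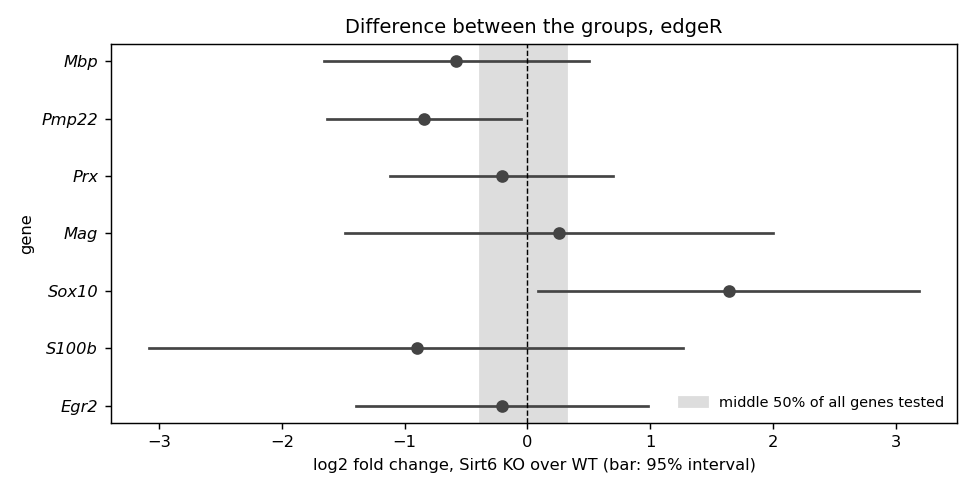
Log2 fold change of *Sirt6* KO over WT for the 7 genes (points) with 95% intervals (bars), against the range between the quartiles of all genes tested (grey). The intervals of *Mbp*, *Prx*, *Mag*, *S100b* and *Egr2* span 0, and those of *Pmp22* (-1.63 to -0.05) and *Sox10* (0.09 to 3.19) do not, before adjustment.

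The libraries differed in these genes more within WT than the typical gene did. On the log2 CPM scale the distance from the lowest to the highest WT library was 1.91 for *Mbp*, 1.47 for *Pmp22*, 1.29 for *Prx*, 2.13 for *Mag*, 1.12 for *Sox10*, 4.37 for *S100b* and 1.49 for *Egr2*, beside a median of 0.47 over all genes tested. Within *Sirt6* KO the distances were from 0.38 (*Pmp22*) to 1.60 (*Sox10*), beside a median of 0.32. For *Mbp*, 95.3% of all genes had a smaller WT distance and 85.6% a smaller *Sirt6* KO distance. These medians are over genes of every level and not of like level. *Mag*, *Sox10*, *S100b* and *Egr2* had between 2 and 68 reads per library, so counting error adds to their distances.

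*Mbp* and *Prx* kept nearly the same proportion to each other while their levels moved. *Mbp* stood at 5.95, 7.15 and 4.89 times *Prx* in TPM in WT and at 5.09, 5.28 and 4.95 times in *Sirt6* KO. The highest ratio was 1.46 times the lowest, against 4.36 times for the level of *Mbp* and 2.98 times for that of *Prx*. *Pmp22* over *Prx* was less even, at 32.3, 30.4 and 27.8 in WT and 29.2, 20.5 and 14.4 in *Sirt6* KO, so *Pmp22* did not follow *Prx* in *Sirt6* KO libraries 2 and 3.

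**Figure D3:**
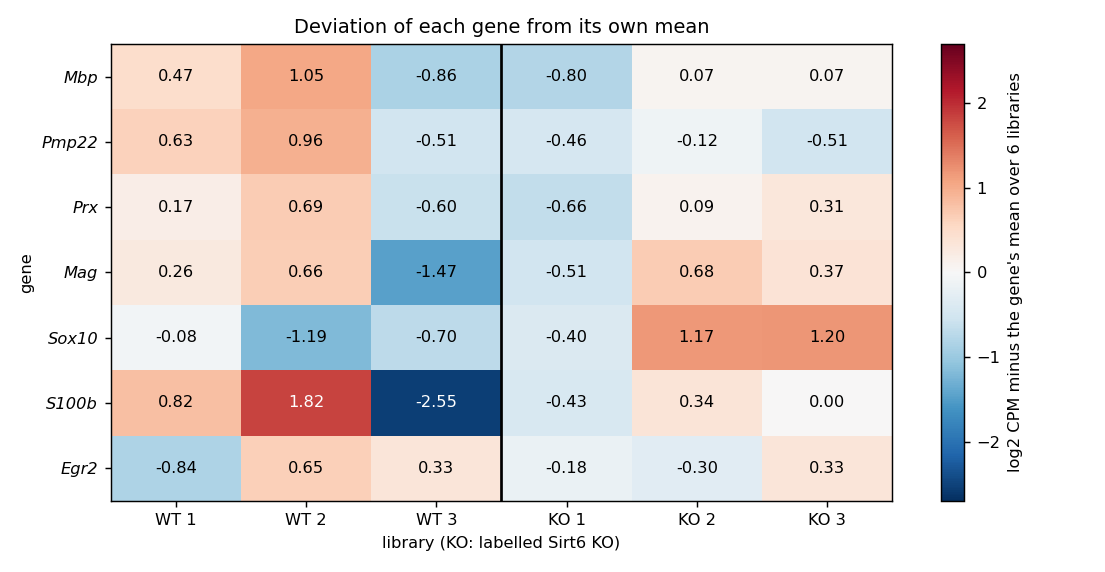
Log2 CPM of each of the 7 genes in each library, minus the mean of that gene over the 6 libraries (red above, blue below). *Mbp*, *Prx*, *Mag* and *S100b* are below their mean in WT library 3 and *Sirt6* KO library 1 and above it in WT libraries 1 and 2, while *Sox10* is above its mean in *Sirt6* KO libraries 2 and 3 alone.

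To find the genes that varied most like these, *Mbp*, *Prx*, *Mag*, *Sox10* and *S100b* were averaged into 1 profile after centring. *Pmp22* and *Egr2* were left out because they are known from other cells of muscle too. This does not mean that Schwann cells alone make the genes kept, since the Golli transcripts of *Mbp* are made outside myelin. Whether other cells of the muscle also made *S100b* or the rest of the genes kept was not tested. In log2 units around the mean, the profile ran at 0.33, 0.61 and -1.23 for WT and at -0.56, 0.47 and 0.39 for *Sirt6* KO. Of the genes averaged, *S100b* lay lowest in WT library 3, at -2.55, and so weighed most in the value of that library. Genes were then ordered by the root mean square difference from it over the 6 libraries, whose median over the 13801 genes was 0.746. The 8 nearest genes outside all lists were *Fads6* (difference 0.125), *Tnfrsf26*, *Cdh23*, *Atp2a3*, *P2ry14*, *Glb1l2*, *Sgol2a* and *Tshr* (difference 0.231). This is a description over 6 libraries that differ in depth and composition, and it says nothing of shared function.

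Among listed genes that took no part in the profile, *Itgb4* was in place 4, *Erbb3* in place 7, *Ugt8a* in place 44, *Drp2* in place 168 and *Cldn1* in place 173 of the 13801 genes. Other listed genes lay farther from the profile than the median difference of 0.746. They included *Ncam1* in place 8838, *Bdnf* in place 12252, *Jun* in place 12275, *Gdnf* in place 13248 and *Cntn1* in place 13698, so the lists did not follow the profile as a whole. *Itgb4* encodes an integrin of Schwann cells and perineurium, *Erbb3* the receptor through which axonal neuregulin reaches Schwann cells, *Ugt8a* the enzyme that makes the galactolipid of myelin, and *Drp2* a partner of periaxin. Of the genes in the profile, *Mag* was in place 2, *Prx* in place 64 and *Mbp* in place 79, while *S100b* was in place 8333 and *Sox10* in place 11590 although both had entered it. *Pmp22* was in place 1408 and *Egr2* in place 11153.

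The further genes of Schwann cells were taken from 5 lists of 44 genes, of which 35 had enough reads to be tested. Of these 35, 2 fell in *Sirt6* KO and none rose at an adjusted p under 0.05, which is 5.71% against the 16.2% of all genes tested, and 8 had an unadjusted p under 0.05 (22.9% against 35.3%). Their median log2 fold change was -0.23.

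Of the 15 genes of myelin structure and myelin lipids, 13 were tested, 1 fell and 12 did not pass, with a median log2 fold change of -0.31. *Cnp*, a myelin enzyme, was at 8.28, 6.88 and 5.28 TPM in WT against 4.42, 5.27 and 5.17 TPM (log2 fold change -0.33, adjusted p = 0.199). *Mal*, a lipid raft protein of myelin, had a log2 fold change of -1.32 (SE 0.56, adjusted p = 0.14).

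Among 10 regulators of Schwann cells, 8 were tested and 1 fell, *Nab1*, a corepressor that binds Egr proteins, at 7.09, 6.18 and 3.68 TPM in WT against 2.99, 3.47 and 2.79 TPM (log2 fold change -0.73, adjusted p = 0.0431, edgeR). With a library left out it passed only without WT library 3 (adjusted p = 0.00769, against 0.068 to 0.148 without each of the others, edgeR). *Zeb2*, a factor that Schwann cells need to mature, had a log2 fold change of -0.23 (adjusted p = 0.13), *Nab2* one of -0.14 (adjusted p = 0.662) and *Erbb2*, the signaling partner of ErbB3, one of 0.89 (adjusted p = 0.102). *Pou3f2* had no read in any library.

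Of 8 genes of non-myelinating and immature Schwann cells, 6 were tested and none passed. The most abundant of them were *Ncam1*, *Scn7a* and *L1cam*, with log2 fold changes of -0.21, -0.43 and -0.92 (adjusted p = 0.478, 0.243 and 0.0825, edgeR). *Foxd3* had a log2 fold change of 0.90 (adjusted p = 0.16). Of 6 genes of repair Schwann cells, the state that follows nerve injury, 3 were tested and none passed: *Jun*, which muscle fibers also express, at -0.55 (adjusted p = 0.26), *Gdnf* at 1.17 (adjusted p = 0.243) and *Bdnf* at -1.89 (adjusted p = 0.0699). The injury gene *Shh* had no read in any library, which allows up to 3 counts in each. All 5 genes of axon contact and the node were tested and none passed, with log2 fold changes from -1.12 (*Gldn*, adjusted p = 0.301) to 1.44 (*Cntn1*, adjusted p = 0.265).

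Genes of the neuron and the perineurium were set beside the Schwann cell genes. Of 9 neuronal genes, whose mRNA lies mostly in cell bodies outside the muscle, 2 had enough reads to be tested and *Chat* and *Snap25* had no read in any library. *Stmn2* was at 5.09, 5.88 and 2.11 TPM in WT and at 1.67, 2.68 and 2.00 TPM in *Sirt6* KO (log2 fold change -0.88, adjusted p = 0.125, edgeR). The 3 genes of the perineurium, the sheath around nerve bundles, summed to 7.42, 11.6 and 4.17 TPM in WT and to 3.60, 7.99 and 6.71 TPM in *Sirt6* KO. None of the 3 passed, and WT library 3 and *Sirt6* KO library 1 were again the lowest. Of 6 genes that muscle fibers induce when their nerve is lost, 1 fell (*Myog*), 1 rose (*Chrna1*) and 4 did not pass. Beside these counts stand 8.39% of all genes tested that were lower and 7.85% that were higher. *Myog*, a muscle regulatory factor, had a log2 fold change of -0.96 (adjusted p = 0.0246, edgeR), and *Chrna1*, a subunit of the acetylcholine receptor, one of 0.73 (adjusted p = 0.0464). With a library left out, *Myog* passed only without WT library 3 (adjusted p = 0.0207, against 0.0547 to 0.0987 without each of the others, edgeR). *Chrna1* passed only without WT library 3 (0.0361) or *Sirt6* KO library 2 (0.0376), and its adjusted p was 0.112 to 0.153 without each of the others (edgeR).

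Summed over *Mbp*, *Prx*, *Mag*, *Sox10* and *S100b*, the level came to 10.5, 15.7 and 3.39 TPM in WT and to 4.11, 7.49 and 7.48 TPM in *Sirt6* KO. *Mbp* made up between 71.3% and 80.0% of this sum, so the sum speaks mostly for *Mbp*. The means were 9.84 ± 6.17 and 6.36 ± 1.95 TPM (SD, n = 3 each), and the highest library held 4.63 times the lowest. Other marker lists also moved between these libraries. The 6 endothelial genes summed to 161, 164 and 77.6 TPM in WT and to 98.6, 96.4 and 89.8 TPM in *Sirt6* KO, and the 6 fibroblast genes to 914, 696 and 398 TPM and to 444, 470 and 462 TPM. WT libraries 1 and 2 were the highest, and WT library 3 the lowest, in the Schwann cell, endothelial, fibroblast and slow fiber sums. WT library 3 was also the lowest for the 5 erythroid genes (122 TPM, against 240 to 1020 TPM in the others) and the 5 adipocyte genes (8.04 TPM, against 26.1 to 228 TPM), and not for the 4 genes of smooth muscle and pericytes (93.5 TPM, with *Sirt6* KO library 3 at 76.9 TPM). Macrophage genes summed to 30.0 to 35.1 TPM in all libraries but WT library 1, at 68.3 TPM. *Sirt6* KO library 3, at 439 TPM among the low libraries for slow fiber genes, was level with *Sirt6* KO library 2 in the Schwann cell sum. The part of tissue composition in the levels of *Mbp*, *Prx*, *Mag* and *S100b* was not tested.

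**Figure D4:**
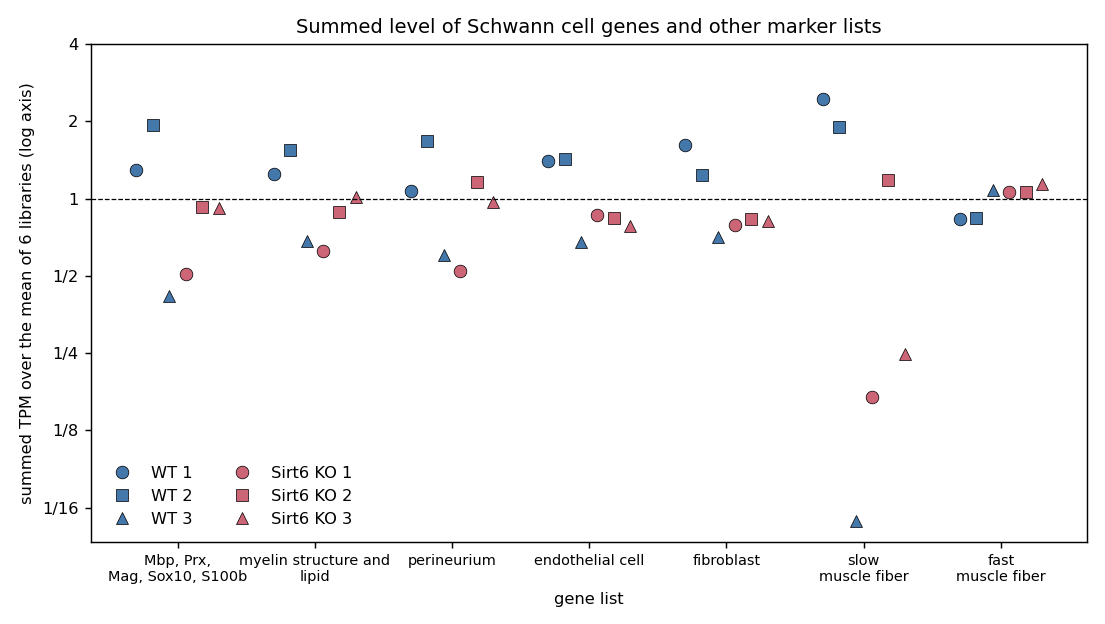
Summed TPM of each gene list in each library, divided by its mean over the 6 libraries (log axis), with WT in blue and *Sirt6* KO in red. WT library 3 (blue triangle) is the lowest library for the 5 Schwann cell genes (3.39 TPM) and for slow fiber genes (98.9 TPM), and the fast fiber genes vary least.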

How the data were processed

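RNA-Seq of GAS muscle from 3 WT and 3 *Sirt6* KO mice was deposited as 1 table on mm10 (GRCm38). The submitters' processing notes name HISAT2 2.1.0, Bowtie2 2.3.4.1 and StringTie 2.1.3b, while the reporting summary names another aligner. As deposited by the authors, the read counts are whole numbers with no normalization, 1 per gene. Deposited beside them, the authors' FPKM and TPM are scaled to transcript length and library size. The kits named in the labels and in the methods differ, and whether counting used the strand is not given in the sources used here. Reads of *Mbp*, *Prx* and *Egr2* may include those of overlapping non-coding genes.

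Counts were tested in R 4.3.3 with edgeR 4.0.16: filterByExpr (13801 genes kept), TMM, a quasi-likelihood fit on group alone and Benjamini-Hochberg adjustment over all genes at 0.05. Standard errors and 95% intervals derive from that test. DESeq2 1.42.0 and limma 3.58.1 served as alternatives. The lowess span over the GC content of the longest GENCODE M21 transcript was 0.3 (known for 97.2% of genes tested). Each test was run on simulated counts with known changes. The simulation gave every gene the same spread between libraries, so it does not speak for genes that vary as much as these. Centred profiles are log2 CPM with a prior count of 2. On the scale of TPM against CPM, libraries differed by -0.13 to 0.19 (log2). WT libraries 1, 2 and 3 lay at 0.19, 0.1 and -0.13, and *Sirt6* KO libraries 1, 2 and 3 at 0, -0.08 and -0.08. For the typical gene, TPM thus set WT library 3 farther below WT libraries 1 and 2 than CPM did.

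The 7 genes and all lists were chosen with earlier results of these data known. Named genes are the 7, at most 3 of each further list by mean TPM and 2 by p, *Sirt6*, and the 8 nearest to the mean profile. Other listed genes are named for their place in that order or because they had no read. Promoters are RefSeq's, and gene positions follow NCBI RefSeq, build GRCm38. Some genes counted in the lists are not reported by name here.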

Additional observations from a re-analysis of the deposited data

How the results depend on the processing

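The count of 0 among the 7 genes past an adjusted p of 0.05 held under DESeq2, its size factors, both other filters, limma on each of 3 scales, the correction for GC content and the block, and with each library left out it lay between 0 and 1, the 1 being *Pmp22* without WT library 3. The count over all genes was 2242, against 3420 with DESeq2, 732 with limma on log2(TPM + 0.1), 916 with the GC content trend removed, and between 8 (without *Sirt6* KO library 1) and 4582 (without WT library 3) with a library left out. The direction of 4 genes turned when 1 library was left out, none of them past the threshold: the log2 fold changes lay between -0.49 and 0.14 for *Prx* (above 0 without WT library 2 at 0.14 and without *Sirt6* KO library 1 at 0.03), between -0.24 and 0.79 for *Mag* (below 0 without WT library 3 at -0.24 and without *Sirt6* KO library 2 at -0.06), between -1.47 and 0.08 for *S100b* and between -0.55 and 0.12 for *Egr2* (both above 0 without WT library 2). The cause was not tested. *Mag*, *Sox10*, *S100b* and *Egr2* gave no value with at least 10 counts in every library. Libraries with the same replicate number did not pair: the correlations of their deviations were -0.106, 0.26 and 0.161 across genes, and not every library correlated best with its own number. With the replicate number as a block 1922 genes passed, and 542 with the block and the GC content trend removed together, and none of the 7 did. *Mag*, *Sox10*, *S100b* and *Egr2* had between 2 and 68 reads per library, which limits what could be seen.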
